A study of Mus musculus with 6 samples.

Results

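The set described here holds 10 imprinted genes that are classically studied in the developing brain, namely *Igf2*, *H19*, *Dlk1*, *Meg3*, *Peg3*, *Mest*, *Grb10*, *Plagl1*, *Ndn* and *Snrpn*. They were chosen by gene name and not by a rule on their measured values, but with earlier results of these data known. Each name matched 1 of the 53378 genes with a value in every library. Neural stem cells (NSCs) carrying floxed alleles of *Tbl1xr1*, a subunit of the NCOR/SMRT corepressor complexes, were derived from mouse embryonic cortex at E14.5. They were grown as neurospheres with 10 ng/ml bFGF and 10 ng/ml EGF and infected with a lentivirus carrying Cre-GFP, whose recombinase removes the floxed segment, or with a control lentivirus carrying GFP alone. Libraries for RNA-seq numbered 3 from control cells, named replicates 1, 1_1 and 2, and 3 labelled Cre, named replicates 2, 2_2 and 3, and all 6 came from floxed cells, so that both groups share the genotype before infection. The study reports that GFP-positive cells were sorted, and that genotyping, RT-qPCR and Western blot showed the loss of *Tbl1xr1* RNA and protein. The share of cells that recombined in the sequenced libraries was not analysed here. Whether replicates 1 and 1_1, or 2 and 2_2, came from 1 culture or embryo is not given in the labels, and p-values measure only the spread between these samples, which may be technical.

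Imprinted genes are expressed mainly from 1 of the parental alleles. The choice is set by imprinting control regions, whose DNA is methylated on the maternal or the paternal copy in the germ line and keeps that mark in the embryo through DNMT1, UHRF1 and the KRAB zinc finger proteins ZFP57 and ZFP445 with their cofactor TRIM28. Many of these genes act on growth, and in the neural lineage several bear on the balance between stem cell maintenance and differentiation. The libraries measured the total RNA of each gene, and the allele of origin was not measured. In bulk libraries, fewer cells of a type and less RNA per cell cannot be told apart.

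The deposited values are normalized counts, meaning the reads of a gene divided by 1 size factor per library. Each library's values came in steps of 1 read, so the reads could be recovered, between 7510615 and 11161497 per control library and between 11893230 and 14828100 per library labelled Cre. *Tbl1xr1* itself was not lower in the libraries labelled Cre, with 3381 ± 440 against 2477 ± 268 normalized counts in control (SD, n = 3 each; log2 fold change 0.45, limma adjusted p = 0.06). All libraries labelled Cre lay above all control libraries for *Tbl1xr1*, and it was called higher in 2 of 16 alternative settings. A count over the whole gene does not measure the deleted part on its own. Directions are therefore given for the libraries labelled Cre relative to control. The 10 markers of neural stem cells, *Sox2* and *Pax6* among them, were all expressed above the filter used for testing, 2 of them at a lower level in the libraries labelled Cre (*Sox1*, log2 fold change -2.27, and *Nes*, -0.85). With limma on log2(normalized count + 1), fitted to 14840 genes whose mean reached at least 10 normalized counts, 4.74% of the genes tested were called higher and 5.22% lower, 9.96% in either direction, at an adjusted p-value under 0.05. Without regard to a test, all 3 libraries labelled Cre lay above all 3 control libraries for 14.7% of these genes and below them for 15.5%.

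Promoters of *Mest*, of *Ndn* and of a neighbour of each are shown first, chosen for the values of these genes. *Mest* and *Copg2* were both lower in the libraries labelled Cre. *Peg12* was lower too, while *Ndn*, with higher counts in those libraries, did not pass the test. Whether a window lies in an imprinting control region was not examined, and DNA methylation was not measured. The RefSeq promoter table (GRCm38.p6, 250 bases before to 50 bases after each start) held 9 of the 10 genes, all but *H19*. Capitals mark the hexamer TGCCGC, which ZFP57 binds when its CpG is methylated and which reads GCGGCA on the other strand, and both strands were searched. Each promoter is written on the strand of its gene. *Mest* has a distal promoter with 8 CpG dinucleotides and no hexamer at chr6:30733256-30733555 on the plus strand, and a proximal promoter with 17 CpG dinucleotides and 2 hexamers at chr6:30737800-30738099. The *Copg2* promoter, chr6:30896745-30897044 on the minus strand, has 25 CpG dinucleotides and 1 hexamer. The *Ndn* promoter, chr7:62348027-62348326 on the plus strand, has 11 CpG dinucleotides and that of *Peg12*, chr7:62464461-62464760 on the minus strand, has 12, and neither holds the hexamer.
Mest distal promoter: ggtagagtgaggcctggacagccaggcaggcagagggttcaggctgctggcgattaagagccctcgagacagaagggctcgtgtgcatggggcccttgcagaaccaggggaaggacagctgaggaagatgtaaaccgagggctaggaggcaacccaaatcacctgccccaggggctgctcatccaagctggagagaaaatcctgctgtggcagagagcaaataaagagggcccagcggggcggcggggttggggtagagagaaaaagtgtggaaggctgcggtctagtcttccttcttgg
Mest proximal promoter: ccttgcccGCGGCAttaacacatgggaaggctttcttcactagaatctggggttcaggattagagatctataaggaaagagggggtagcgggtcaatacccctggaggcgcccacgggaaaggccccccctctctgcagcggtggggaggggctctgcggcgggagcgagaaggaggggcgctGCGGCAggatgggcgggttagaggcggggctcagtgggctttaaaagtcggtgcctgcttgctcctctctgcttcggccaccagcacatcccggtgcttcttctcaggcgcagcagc
Copg2 promoter: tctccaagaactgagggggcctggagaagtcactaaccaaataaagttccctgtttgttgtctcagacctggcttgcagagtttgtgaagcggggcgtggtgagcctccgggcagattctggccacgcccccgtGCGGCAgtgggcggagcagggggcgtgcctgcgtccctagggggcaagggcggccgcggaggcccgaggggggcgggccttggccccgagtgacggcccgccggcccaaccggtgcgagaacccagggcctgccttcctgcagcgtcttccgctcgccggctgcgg
Ndn promoter: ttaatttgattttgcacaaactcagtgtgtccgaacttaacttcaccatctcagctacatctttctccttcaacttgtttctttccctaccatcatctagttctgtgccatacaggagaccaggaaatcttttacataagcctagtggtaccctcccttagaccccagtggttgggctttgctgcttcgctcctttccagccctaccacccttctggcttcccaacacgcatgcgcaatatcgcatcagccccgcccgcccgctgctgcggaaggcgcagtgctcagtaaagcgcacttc
Peg12 promoter: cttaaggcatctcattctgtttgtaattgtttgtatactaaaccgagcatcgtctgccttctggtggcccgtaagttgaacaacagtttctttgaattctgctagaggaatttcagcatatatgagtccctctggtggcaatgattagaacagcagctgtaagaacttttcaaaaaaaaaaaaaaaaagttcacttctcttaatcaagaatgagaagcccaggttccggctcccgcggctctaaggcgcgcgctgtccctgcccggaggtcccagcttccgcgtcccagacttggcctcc

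Of 32851 promoters of this length in the table, 11.6% held the hexamer and 1.53% held 2 or more as the proximal *Mest* promoter does. Of the 82 promoters that the table gives for 55 of the 72 imprinted genes listed for comparison, 19 (23.2%) held it. Windows that overlap or repeat, as at *Mest* and at *Snrpn* and *Snurf*, were each counted. The hexamer contains a CpG, and the median over all promoters was 7 CpG dinucleotides. The 2 shares were not adjusted for CpG content, and their difference was not tested. Among the other genes of the set, a single hexamer was found in the only *Plagl1* promoter and in 1 promoter each of *Grb10*, *Igf2*, *Meg3* and *Snrpn*, and none in those of *Peg3* and *Dlk1*. The match describes the letters of these windows and not an occupied site, and the absence of a match says only that the hexamer is not in the window.

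Per length, *Mest* was by far the most abundant of the 10 genes. On the RPKM scale, which divides the recovered reads by the exon length of the gene and by the depth of the library, *Mest* had a level of 87.1 ± 6.45 in control (SD, n = 3, as for all levels here). It was followed by *Peg3* with 7.86 ± 0.65, *Ndn* with 6.18 ± 2.24 and *Snrpn* with 5.16 ± 0.404. The intervals of 1 SD of *Peg3* and *Ndn* overlapped, as did those of *Ndn* and *Snrpn*. Within libraries, *Peg3* was above *Ndn* in each control library, and *Ndn* was above *Snrpn* except in replicate 1_1. The other genes were expressed at a level below 1, with 0.656 ± 0.274 for *H19*, 0.292 ± 0.0951 for *Plagl1*, 0.224 ± 0.0671 for *Grb10*, 0.110 ± 0.0729 for *Igf2* and 0.00805 ± 0.0073 for *Meg3*. From *H19* to *Igf2*, the intervals of 1 SD of each gene and the next overlapped. These intervals hold the spread between libraries. Within each control library the 4 genes kept this order, on few reads. No read of *Dlk1* was counted in any library. In the libraries labelled Cre, *Mest* was still first with a level of 55.5 ± 7.41, and the order below it had changed. *Ndn* had a level of 9.64 ± 0.64, *Peg3* of 9.03 ± 0.633 and *Snrpn* of 3.75 ± 0.656. The intervals of 1 SD of *Ndn* and *Peg3* overlapped, but *Ndn* was above *Peg3* in each of these libraries. At the low end *Grb10* stood at 0.445 ± 0.126 and *Plagl1* at 0.172 ± 0.0889, and *H19* had moved to 0.0325 ± 0.0347, next to *Igf2* at 0.0366 ± 0.0189 and *Meg3* at 0.0275 ± 0.017.

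*Mest* fell in the libraries labelled Cre. It encodes a protein with the fold of alpha/beta hydrolases, is expressed from the paternal allele and hosts miR-335 in an intron. It lies on chromosome 6 of mm9 from 30673547 to 30698457 on the plus strand (ENSMUSG00000051855). *Mest* had 3681, 3912 and 3249 normalized counts in control libraries 1, 1_1 and 2, and 1977, 2629 and 2272 in the libraries labelled Cre, replicates 2, 2_2 and 3. All libraries labelled Cre lay below all control libraries, as for 15.5% of all genes tested. The means were 3614 ± 336 and 2293 ± 326 (SD, n = 3 each), with a log2 fold change of -0.66 (standard error 0.13, 95% interval -0.96 to -0.37, limma adjusted p = 0.0112). Of all genes tested, 14.8% had a log2 fold change at least as large in either direction. The exact two-sided permutation test of 3 libraries against 3 gave 0.1, the smallest p it allows. Among 16 alternative settings the log2 fold change of *Mest* ran from -0.77 to -0.56 and the call was kept in 13, while the adjusted p rose to 0.0666 without control replicate 1, to 0.061 without control replicate 1_1 and to 0.0601 with these libraries averaged.

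*Copg2*, which encodes a gamma subunit of the COPI vesicle coat and starts on the far side of *Mest* on the opposite strand, also fell. It had 2217, 2458 and 2142 normalized counts in control libraries 1, 1_1 and 2 and 1631, 1716 and 1517 in the libraries labelled Cre, again with no overlap (log2 fold change -0.49, standard error 0.11, limma adjusted p = 0.0224). The call of *Copg2* was lost in 5 of 16 alternatives, among them leaving out each control library in turn or replicate 2_2 of the libraries labelled Cre. The ends of both genes overlap over 904 bases of chromosome 6, exons included, and the library kit does not mark strand, so reads from these bases cannot be told apart. The log2 ratio of *Mest* to *Copg2* was 0.67 ± 0.0652 in control libraries and 0.49 ± 0.186 in those labelled Cre, with overlapping groups.

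**Figure D1:**
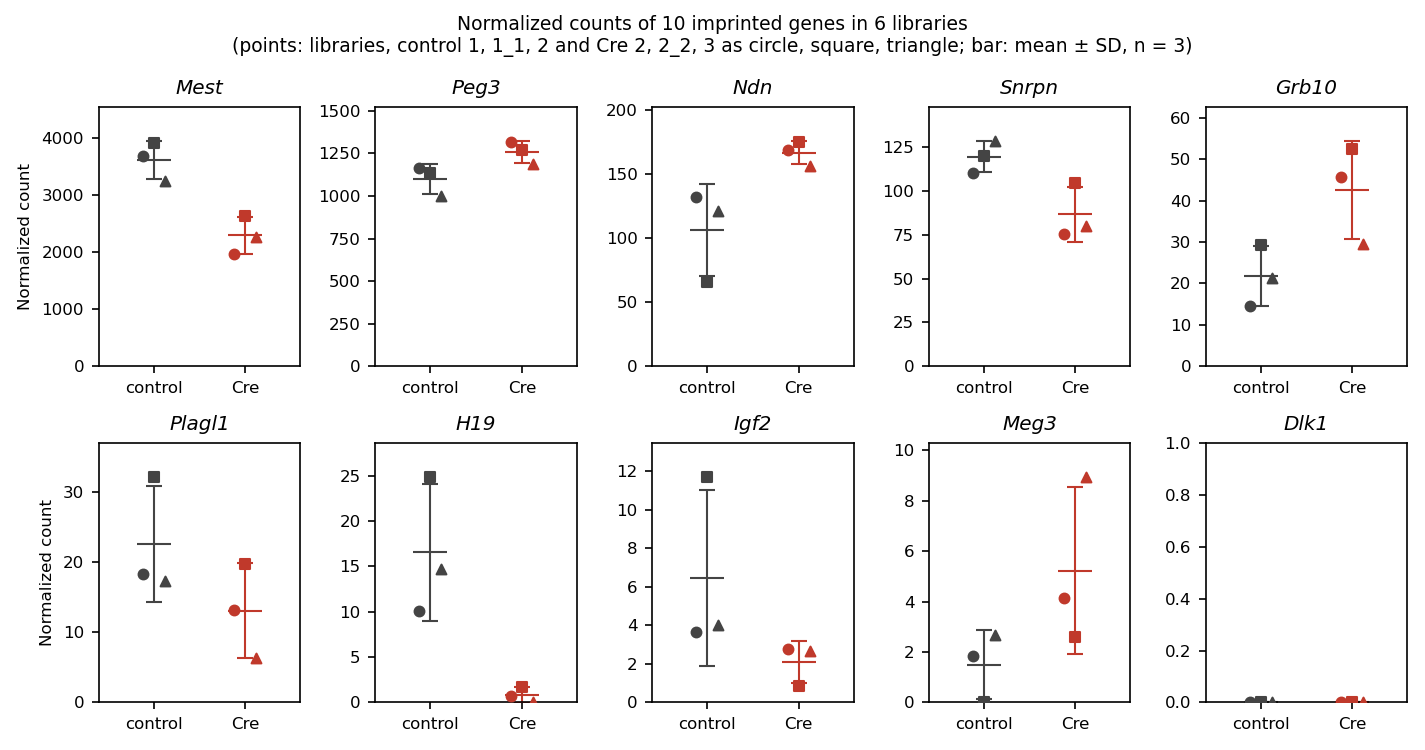
Normalized counts (y axis) of each of the 10 imprinted genes in the 3 control libraries (grey) and the 3 libraries labelled Cre (red), with 1 point per library and bars for the mean ± SD. The *Mest* points of the libraries labelled Cre, from 1977 to 2629, sit below all control points, from 3249 to 3912, and *Dlk1* sits at 0 throughout.

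The other paternally expressed genes of the set with moderate levels went in both directions, and none of their differences passed the test. *Peg3* (ENSMUSG00000002265) encodes a zinc finger protein and lies on chromosome 7 of mm9 from 6656603 to 6683132. *Peg3* had 1165, 1138 and 999 normalized counts in control libraries and 1317, 1272 and 1186 in those labelled Cre. Its groups did not overlap, but the difference was small (log2 fold change 0.19, 95% interval -0.06 to 0.45, limma adjusted p = 0.332). *Ndn* (ENSMUSG00000033585), the single-exon gene of the MAGE family member necdin, which restrains proliferation in neurons and their progenitors, lies on chromosome 7 from 69493163 to 69494814. *Ndn* had 132, 65.8 and 121 normalized counts in control libraries and 169, 175 and 157 in those labelled Cre. All libraries labelled Cre were above the control libraries, of which replicate 1_1 was the lowest (log2 fold change 0.70, 95% interval 0.16 to 1.25, limma adjusted p = 0.102). Over 16 alternatives the log2 fold change of *Ndn* ran from 0.39 to 0.89 and the adjusted p from 0.0904 to 0.278.

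*Snrpn* (ENSMUSG00000102252) encodes the spliceosomal protein SmN, which is abundant in brain, and its promoter region holds the imprinting control region of the Prader-Willi domain. *Snrpn* had 110, 120 and 128 normalized counts in control libraries and 75.5, 104 and 79.7 in those labelled Cre. The groups did not overlap, with the libraries labelled Cre below (log2 fold change -0.47, 95% interval -0.91 to -0.03, limma adjusted p = 0.165). Its level is uncertain, because genes named *Gm38393* and *Snurf* cover the same locus and the counting could have split its reads. *Gm38393* had 24.6 ± 12.1 normalized counts in control libraries and 30.1 ± 4.37 in those labelled Cre, with overlapping groups. *Snurf* had means of 4.76 and 2.42.

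*Grb10* (ENSMUSG00000020176) encodes an adaptor that inhibits signalling from the insulin and IGF1 receptors, and is expressed from the maternal allele in most tissues and from the paternal allele in neurons. It lies on chromosome 11 of mm9 from 11830511 to 11938686. *Grb10* had 14.7, 29.3 and 21.3 normalized counts in control libraries and 45.7, 52.5 and 29.5 in those labelled Cre. The lowest library labelled Cre was just above the highest control library (log2 fold change 0.95, 95% interval 0.17 to 1.73, limma adjusted p = 0.118). *Plagl1* (ENSMUSG00000019817), which encodes the zinc finger transcription factor ZAC1, lies on chromosome 10 from 12810497 to 12851500. It had 18.4, 32.2 and 17.3 normalized counts in control libraries and 13.2, 19.8 and 6.27 in those labelled Cre, with overlapping groups (log2 fold change -0.82, 95% interval -1.85 to 0.21, limma adjusted p = 0.307). *Peg3*, *Ndn*, *Snrpn*, *Grb10* and *Plagl1* were not called in any alternative that tested them, and none changed direction.

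Of the 6 genes of the set that passed the filter, 1 was called lower and 0 higher with limma, and the same with edgeR and DESeq2 on the recovered reads. An unadjusted p under 0.05 was given for 4 of them, 2 higher (*Ndn* and *Grb10*) and 2 lower (*Mest* and *Snrpn*), against 25.5% of all genes tested, and the median log2 fold change was -0.14 against 0.00 over all genes tested. The groups did not overlap for 5 of the 6, with the libraries labelled Cre above in 3 (14.7% of all genes tested) and below in 2 (15.5%). The filter kept genes by their mean over all libraries, and the other 4 genes of the set are given by their reads.

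*H19* (ENSMUSG00000000031) had few reads, and nearly all of them were in the control libraries. This long noncoding RNA is expressed from the maternal allele, hosts miR-675 in an exon, and shares with *Igf2* the control region and enhancers of a domain on chromosome 7, where it lies from 149761434 to 149764048 of mm9. *H19* had 11, 17 and 11 reads in control libraries 1, 1_1 and 2, and 1, 2 and 0 reads in the libraries labelled Cre, replicates 2, 2_2 and 3, although these were the deeper libraries. The sums were 39 and 3 reads, or 1.48 and 0.0771 RPM (reads scaled to the depth of the group), a ratio of control to Cre of 19.1 (exact 95% interval 6.09 to 96.8, for counting error only). Its mean of 8.67 normalized counts fell just under the filter. With no filter, where limma called 2.73% of 27585 genes lower and 2.51% higher, *H19* had a log2 fold change of -3.31 and an adjusted p of 0.0063. With no filter, edgeR on the recovered reads gave an adjusted p of 0.0002 and DESeq2 0.0025, and leaving out any 1 of the 6 libraries raised the limma adjusted p to between 0.102 and 0.156, with the log2 fold change between -3.67 and -2.94.

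*Igf2* (ENSMUSG00000048583), the fetal growth factor expressed from the paternal allele of the same domain, was at the edge of detection. It had 4, 8 and 3 reads in control libraries and 4, 1 and 3 in those labelled Cre. In normalized counts each library labelled Cre lay below each control library. The sums of 15 and 8 reads gave a ratio of control to Cre of 2.76 in RPM (exact 95% interval 1.10 to 7.52, counting error only), and with no filter the limma adjusted p was 0.419, so the difference did not hold up against the spread between libraries. The gene lies from 149836673 to 149852721 of chromosome 7 in mm9 and overlaps an antisense RNA, *Igf2as*, which a kit without strand cannot separate from it. Fibroblasts and meningeal cells express *Igf2* and *H19* in the embryonic head. Of 12 markers of these cells 6 were at 0 in all libraries, *Col1a2*, *Pdgfrb* and *Twist1* among them, and the summed level of the list ran from 306 to 357 normalized counts in control libraries and from 218 to 330 in those labelled Cre, most of it *Foxc1*. The part of such cells in the reads of *H19* and *Igf2* was not tested.

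The *Dlk1*-*Dio3* domain of chromosome 12 was barely detected in either group. *Dlk1* (ENSMUSG00000040856) encodes a transmembrane protein with EGF-like repeats, is expressed from the paternal allele and lies from 110691033 to 110701546 of mm9. Its 0 reads allow a level of up to 0.113 RPM in control libraries and 0.0771 in those labelled Cre (3 reads over the group). *Meg3* (ENSMUSG00000021268), the maternally expressed noncoding RNA of the domain, lies from 110779211 to 110809936. It had 2, 0 and 2 reads in control libraries and 6, 3 and 10 in those labelled Cre. These 4 and 19 reads gave a ratio of Cre to control of 3.23 in RPM (exact 95% interval 1.07 to 13.04), but counting error is only part of the error and the limma adjusted p with no filter was 0.339. None of the 6 listed genes of the domain passed the filter, and 4 of them had no read in any library.

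To place the 10 genes among others of their kind, the values of a list of 72 mouse imprinted genes, including them, were read from the same fit. Of these, 11 had no read in any library and 38 passed the filter. Of the 38, 5 were called lower and 0 higher with limma, against 5.22% and 4.74% of all genes tested, and at an unadjusted p under 0.05 there were 9 lower and 4 higher, where 25.5% of all genes tested had such a p. The log2 fold changes were positive for 20 and negative for 18, with a median of 0.00, which was also the median over all genes. Leaving out the 10 genes of the set, 4 of 32 tested were called lower and 0 higher, and edgeR and DESeq2 on the recovered reads gave 4 and 5 lower and 0 higher. This count of 4 became 2 without control replicate 1 or 1_1, 1 without control replicate 2, and 6, of which 1 was higher, without replicate 2 of the libraries labelled Cre. Of the paternally expressed genes 21 were tested and 4 called (19.05%), and of the maternally expressed genes 17 were tested and 1 called (5.88%), and the difference between these shares was not tested. The expressed allele was assigned from general knowledge, and whether each gene is imprinted in these cells was not measured.

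The called genes beside *Mest* and *Copg2* were *Peg10*, *Peg12* and *Peg13*. *Peg10*, a gene derived from a retrotransposon that is needed for placental development, had 1650, 1631 and 1358 normalized counts in control libraries and 885, 934 and 1006 in those labelled Cre (log2 fold change -0.71, limma adjusted p = 0.0051), and it was called in all 16 alternatives. *Peg12* (*Frat3*), an intronless gene of the FRAT family of Wnt pathway proteins, had 976, 1061 and 1044 normalized counts in control libraries and 710, 698 and 611 in those labelled Cre (log2 fold change -0.61, limma adjusted p = 0.0092). The noncoding RNA *Peg13* had 156, 151 and 159 normalized counts in control libraries and 68.6, 80.9 and 96.7 in those labelled Cre, with a log2 fold change of -0.92 (limma adjusted p = 0.0124). The groups did not overlap for any of these genes. The adjusted p of *Peg12* was 0.0501 without control replicate 2, and that of *Peg13* was between 0.0502 and 0.0678 without any 1 of the control libraries.

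**Figure D2:**
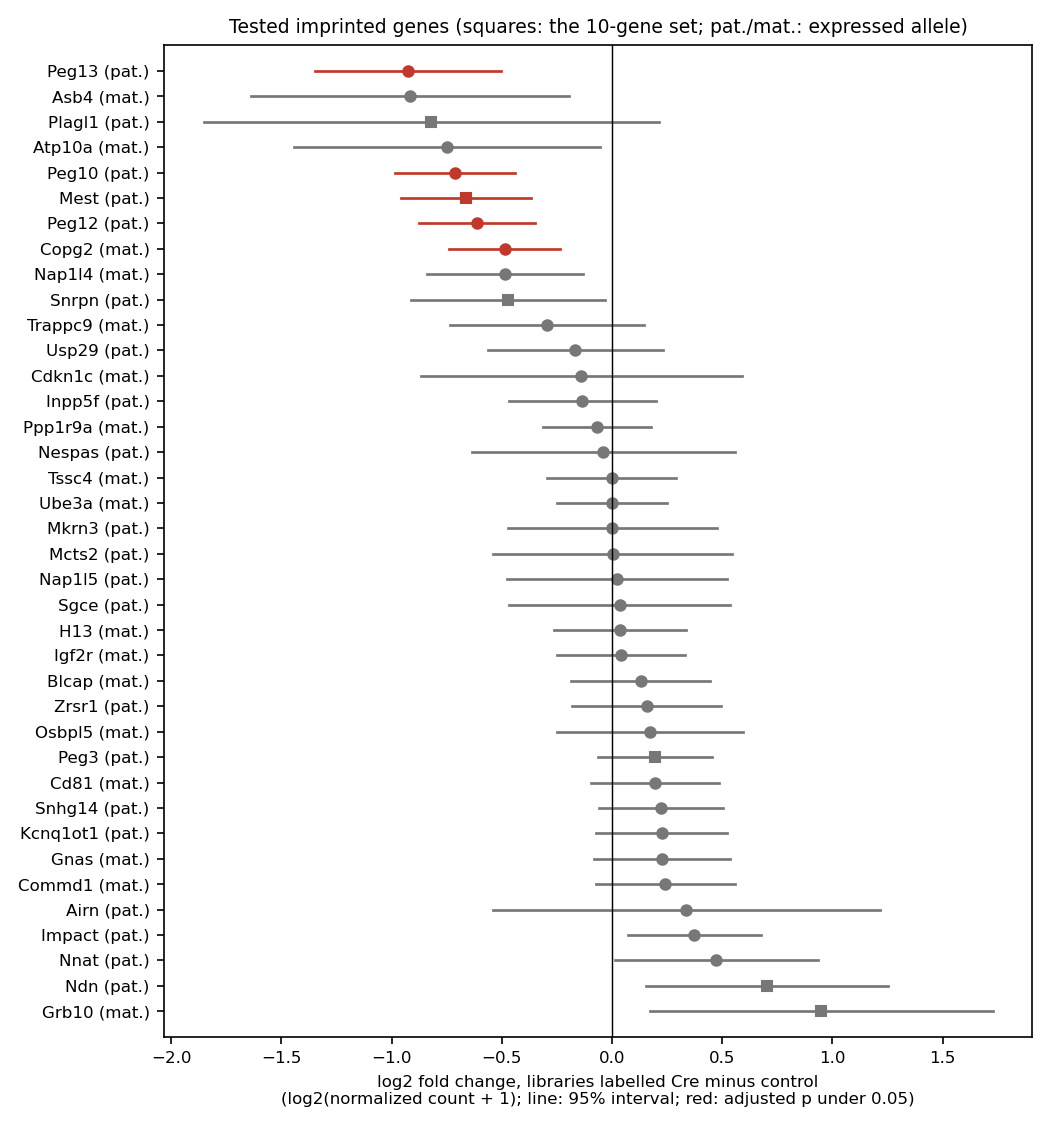
log2 fold changes (x axis, libraries labelled Cre minus control) of the 38 imprinted genes that passed the filter, with 95% intervals as lines, squares for the genes of the 10-gene set and the expressed allele in brackets. The 5 genes in red passed an adjusted p-value of 0.05 and all lie left of 0, while *Ndn* and *Grb10* lie farthest right without passing it.

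Under the filter, *Sfmbt2* stood out and is named after its values were seen. This Polycomb-related gene, expressed from the paternal allele in placenta, had 3 reads in all control libraries together and 48 in the libraries labelled Cre, a ratio of Cre to control of 10.9 in RPM (exact 95% interval 3.502 to 54.53, counting error only). With no filter its log2 fold change was 2.86 with a limma adjusted p of 0.0168, and the adjusted p lay between 0.1 and 0.212 when 1 library was left out.

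None of the other tested genes in the domains of the 10 genes passed the test with limma. In the *Igf2*-*H19* and *Kcnq1* domain 6 of 14 listed genes were tested, with a log2 fold change of 0.23 for *Kcnq1ot1*, the antisense RNA that silences part of the domain, -0.14 for *Cdkn1c*, a CDK inhibitor, 0.20 for *Cd81*, 0.00 for *Tssc4* and 0.17 for *Osbpl5*. A larger difference was that of *Nap1l4*, a histone chaperone gene, with 5992, 4570 and 6655 normalized counts in control libraries and 4756, 3558 and 3925 in those labelled Cre and overlapping groups (log2 fold change -0.49, limma adjusted p = 0.083). It was called with DESeq2 on the recovered reads (adjusted p = 0.0474) and without replicate 2 of the libraries labelled Cre (limma adjusted p = 0.0166), and over 16 alternatives the adjusted p reached 0.283. In the *Peg3* domain *Usp29* had a log2 fold change of -0.17. In the *Snrpn*-*Ube3a* domain 7 of 9 listed genes were tested, and besides *Peg12*, *Ndn* and *Snrpn* they were *Ube3a*, the ubiquitin ligase gene of Angelman syndrome (0.00), *Mkrn3* (0.00), the noncoding RNA *Snhg14* (0.22) and *Atp10a* (-0.75, limma adjusted p = 0.164).

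Neighbouring genes of a domain did not all differ in the same direction. The pairs compared here were chosen after the values of single genes were seen, and their ratios are a description with no test. *Peg12*, *Mkrn3*, *Ndn* and *Snrpn* are all expressed from the paternal allele under the same control region. The log2 ratio of *Peg12* to *Ndn* was 3.32 ± 0.591 in control libraries and 2.00 ± 0.0553 in those labelled Cre, and that of *Peg12* to *Mkrn3* was 3.34 ± 0.111 and 2.73 ± 0.406 (SD, n = 3 each). The log2 ratio of *Ndn* to *Snrpn* went the other way, from -0.22 ± 0.573 to 0.95 ± 0.206. Outside this domain, *Peg10* fell and *Sgce*, which shares its promoter region, had 129 ± 38.0 and 129 ± 15.6 normalized counts. The log2 ratio of *Peg10* to *Sgce* was 3.61 ± 0.295 in control libraries and 2.86 ± 0.247 in those labelled Cre. The ratio of *Peg13* to *Trappc9*, in an intron of which it lies, went from 0.01 ± 0.0372 to -0.62 ± 0.178, and that of *Peg3* to *Usp29* from 3.25 ± 0.169 to 3.61 ± 0.0807. The groups did not overlap in any of these 6 ratios, each taken as the difference of log2(normalized count + 1) within a library. They did overlap in the ratio of *Mest* to *Copg2*. Each of the 6 pairs holds a gene whose own groups did not overlap, and the share over other pairs of genes was not computed.

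**Figure D3:**
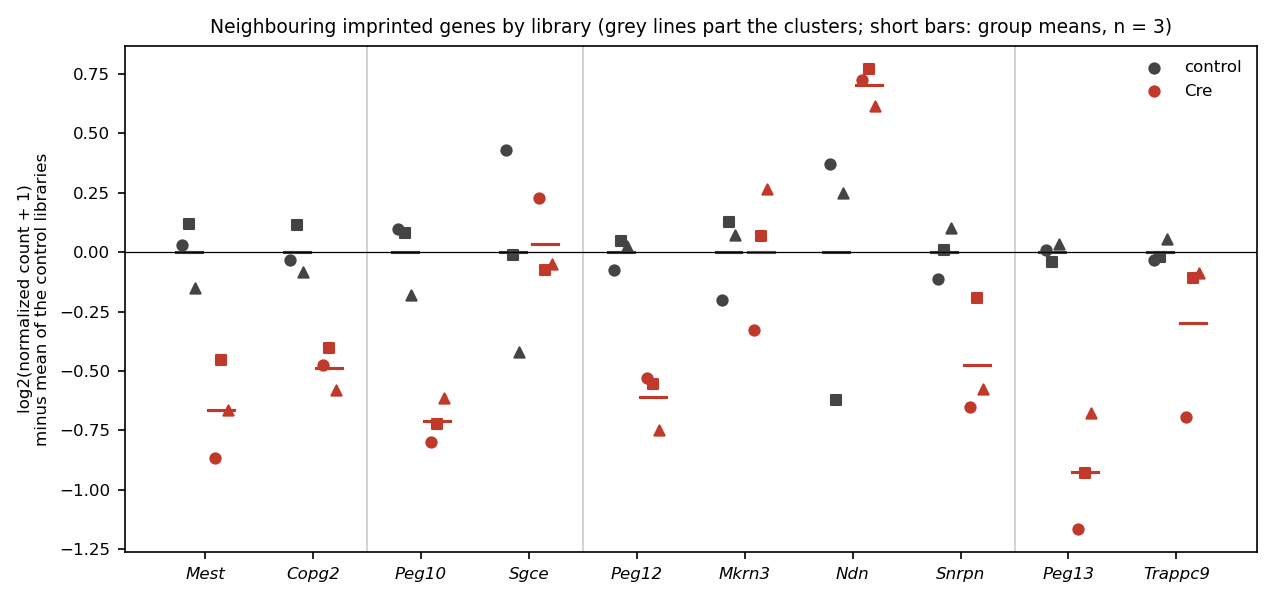
Level of neighbouring imprinted genes in each library as log2(normalized count + 1) minus the mean of the control libraries (y axis), with grey lines between domains, short bars for group means (n = 3) and the points of the libraries labelled Cre in red. *Mest* and *Copg2* lie below the control points together, whereas *Ndn* lies above them and *Peg12* and *Snrpn*, of the same domain, below.

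Genes that set or keep imprints were lower more often than higher. Of 24 listed, 22 were tested, 5 were called lower and 1 higher (27.3% called, against 9.96% of all genes), and 16 had a negative log2 fold change, with a median of -0.23. *Dnmt1*, the methyltransferase that copies DNA methylation after replication, had 3358, 3746 and 3786 normalized counts in control libraries and 2410, 2174 and 2201 in those labelled Cre (log2 fold change -0.68, limma adjusted p = 0.0041), and it was called in all 16 alternatives. *Uhrf1*, which brings DNMT1 to newly replicated DNA, had means of 243 ± 38.5 and 146 ± 32.5 normalized counts (log2 fold change -0.74, limma adjusted p = 0.0365). *Hells*, a chromatin remodeller needed for DNA methylation, had 827 ± 67.0 and 509 ± 124 (log2 fold change -0.73, limma adjusted p = 0.0222).

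The corepressor of the KRAB zinc finger proteins, *Trim28*, had 1610 ± 118 normalized counts in control libraries and 1110 ± 71.0 in those labelled Cre (log2 fold change -0.53, limma adjusted p = 0.0154). *Setdb1*, the H3K9 methyltransferase that TRIM28 recruits, had 1363 ± 209 and 967 ± 21.2 (log2 fold change -0.48, limma adjusted p = 0.0414). Of the zinc finger proteins themselves, *Zfp445* was higher with 1155 ± 31.0 and 1524 ± 102 normalized counts (log2 fold change 0.40, limma adjusted p = 0.0472). *Zfp57* had 48.9 ± 1.07 and 60.5 ± 5.44, which did not pass the test (log2 fold change 0.30, limma adjusted p = 0.455). *Ctcf*, the insulator protein that reads the unmethylated *H19* control region, had a log2 fold change of -0.05.

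The calls of this group were less stable than that of *Dnmt1*, with *Trim28* called in 13 of 16 alternatives, *Hells* in 11, *Uhrf1* in 10, *Setdb1* in 9 and *Zfp445* in 8. The number called was 1 without control replicate 1 or without control replicate 2, 2 without control replicate 1_1 or without replicate 2_2 of the libraries labelled Cre, and 3 without replicate 3 of the latter. Cells in S phase express *Dnmt1*, *Uhrf1* and *Hells* together with the genes of the replicative helicase, *Mcm2* to *Mcm7*. Of these 6 helicase genes, chosen after their values were seen, 5 were called lower in the same libraries, against 5.22% of all genes tested. The exception was *Mcm6*. The libraries labelled Cre lay below all control libraries for each of the 6, as for 15.5% of all genes tested. The log2 fold changes ran from -0.84 to -0.61 and the limma adjusted p-values from 0.0014 to 0.0649. The part of cycling cells in the values of the imprint regulators was not tested.

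**Figure D4:**
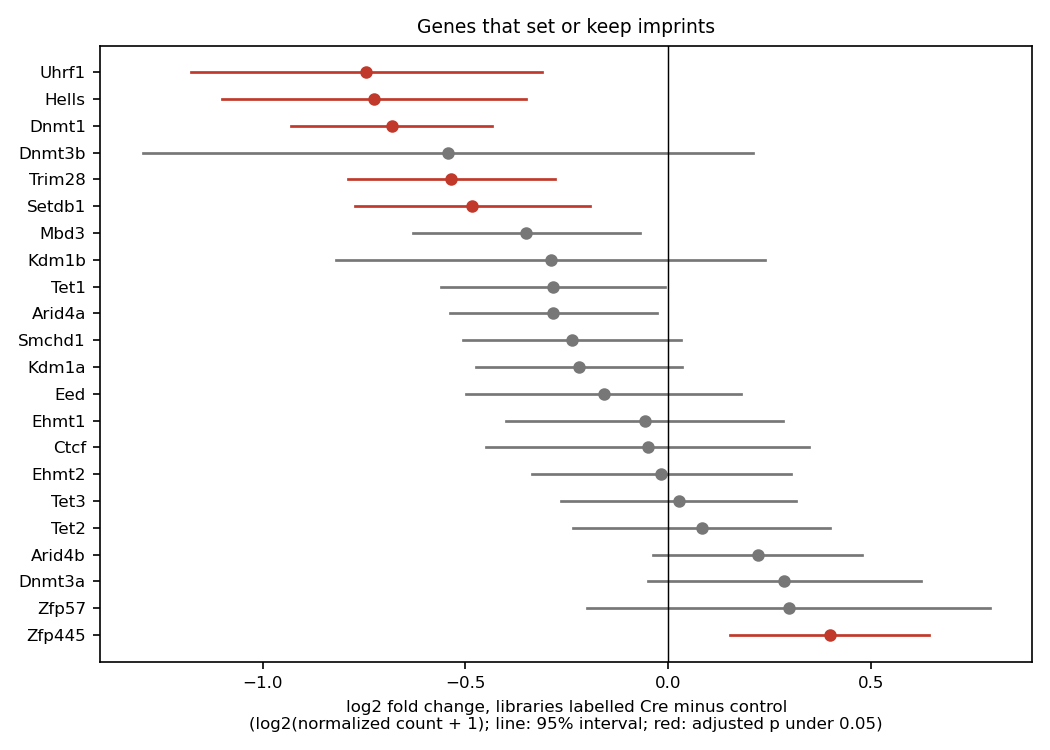
log2 fold changes (x axis, libraries labelled Cre minus control) of the 22 tested genes that set or keep imprints, with 95% intervals as lines and red for an adjusted p-value under 0.05. *Uhrf1*, *Hells*, *Dnmt1*, *Trim28* and *Setdb1* lie left of 0 and *Zfp445* lies right of it.

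The IGF axis holds receptors and partners through which IGF2 and GRB10 act. Of its 15 listed genes 12 were tested, and 1 was called higher and 0 lower with limma (8.33%, near the 9.96% of all genes), and the median log2 fold change was 0.10. At an unadjusted p under 0.05 there were 3 higher and 1 lower, against 25.5% of all genes, edgeR called 2 higher and 0 lower, DESeq2 1 higher and 1 lower, and without replicate 2 of the libraries labelled Cre limma also called 1 higher and 1 lower. *Igf2bp2*, an RNA-binding protein that binds *Igf2* mRNA, was the called gene, with 289, 303 and 268 normalized counts in control libraries and 466, 749 and 648 in those labelled Cre (log2 fold change 1.09, standard error 0.17, limma adjusted p = 0.0034), and it was called in all 16 alternatives. *Igf1* had 6.42, 7.31 and 9.34 normalized counts in control libraries and 22.2, 19.8 and 20.6 in those labelled Cre, with no overlap but just over the threshold (log2 fold change 1.34, limma adjusted p = 0.0555, from 0.0494 to 0.178 over 15 alternatives). *Igf2r*, itself imprinted, which clears IGF2, had a log2 fold change of 0.04 (limma adjusted p = 0.882) and *Igf1r*, through which IGF2 signals, -0.16 (limma adjusted p = 0.419).

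Markers of some cell types differed between the groups in the same libraries. The summed level of 10 astrocyte markers was 13052 to 14551 normalized counts in control libraries and 21207 to 25055 in those labelled Cre, with 5 of 9 tested called higher, against 4.74% of all genes. *Aldh1l1*, the only 1 of these 9 with a negative log2 fold change, lay below control in all libraries labelled Cre without passing the test (log2 fold change -1.65, limma adjusted p = 0.065). The sum of 10 markers of the oligodendrocyte lineage was 12899 to 14824 and 17819 to 20124, with 3 of 7 called higher. For 10 neuronal markers it was 17605 to 18679 and 14805 to 16797, with 1 of 7 called lower (*Gap43*) and 3 of the 7 log2 fold changes positive, where 5.22% of all genes were called lower. *Gap43* set the direction of the sum, since without it the sum was 9318 to 9540 in control libraries and 10156 to 11383 in those labelled Cre, most of it *Map2*. By single genes, 4 of the 7 log2 fold changes were negative, *Gap43* included, with a median of -0.33. Endothelial markers summed to 28.0 to 46.8 and 15.2 to 29.8 with *Cdh5* and *Cldn5* at 0, and choroid plexus markers to 577 to 648 and 371 to 522 with *Ttr* at 0 and *Otx2* as nearly all of the sum. Microglial markers summed to 164 to 206 and 168 to 274 with *C1qa* at 0, and red blood cell markers to at most 5.33 and 10.4 with 3 of 5 at 0. The part of a shifted mixture of cell types in the levels of *Mest*, *Ndn*, *Grb10* and the other imprinted genes was not tested.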

How the data were processed

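RNA-seq values of 6 libraries of *Tbl1xr1* floxed neural stem cells were analysed, 3 control and 3 labelled Cre, grouped by the sample labels. The authors prepared libraries with a kit that does not mark strand. The study's methods name TopHat with mm9 and mm10, and the submitters' processing notes name STAR 2.7, mm10 and DESeq2. The counter, its strand setting and the annotation are not given in the sources used here. The authors deposited normalized counts per gene, a signal equal to reads divided by 1 size factor per library. The table also holds the authors' mean, log2 fold change, standard error, test statistic and p-values, none of which was used.

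Of 53379 genes, 873 had no name and 1 (*Srpk3*), with a missing value in control replicate 2, was left out, and every per-sample column was used, so 0 remained unused. In every library 100% of the values were whole multiples of 1 read to within 6.82e-05 of a read, and that read was worth between 0.693 and 1.46 normalized counts. The chi-square statistic per degree of freedom, over genes with at least 10 reads in a pair of libraries of 1 group, ran from 5.85 to 36.0, so that no pair agreed within sampling noise. Each library was counted once. The statistic cannot tell whether 2 libraries came from separate cultures, since separate preparations of 1 culture can also differ beyond sampling noise.

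Tests used limma 3.58.1 in R 4.3.3 (functions lmFit and eBayes, the latter with its trend option) on log2(normalized count + 1) for those genes with a mean of at least 10, two-sided, with Benjamini-Hochberg adjustment over all genes tested and a threshold of 0.05. Fold changes on this scale understate the change of low genes. Alternatives were edgeR 4.0.16 and DESeq2 1.42.0 on recovered whole reads, a pseudocount of 0.5 or 5, no filter, a mean of at least 50, TMM scaling, total count scaling, averaging of like-numbered libraries, and leaving out each library. For *H19*, *Igf2*, *Meg3* and *Sfmbt2*, edgeR, DESeq2 and the leave-one-out fits with no filter were added after the data were seen. The limma fit was also run on simulated counts, with independent libraries and the same dispersion setting for every gene. That run does not measure the rate of false calls in these libraries. Single values were compared by exact permutation in scipy 1.17.1. Ratios of reads carry exact Clopper-Pearson intervals at 95%, which cover counting error only, since PCR copies are not independent molecules.

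Positions came from GENCODE M1 on mm9 by identifier, and exon lengths from the same annotation. *Snrpn* was matched by symbol only, and no position is given for it. Promoters came from RefSeq on GRCm38.p6, the build also called mm10. The deposited values carry identifiers and no coordinates. The members and gene lists were chosen with earlier results of these data known, and the lists and the expressed allele of each gene were written from general knowledge. Named were the 10 genes, tested genes of their domains, other imprinted genes, regulators and IGF axis genes past the threshold, *Tbl1xr1*, and genes on which a result turned, which are *Zfp57*, *Ctcf*, *Igf1*, *Igf1r*, *Igf2r*, *Sgce*, *Trappc9*, *Mcm2* to *Mcm7*, *Snurf*, *Gm38393* and *Sfmbt2* and were chosen after their values were seen. Figures were drawn with matplotlib 3.10.9.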

Additional observations from a re-analysis of the deposited data

How the results depend on the processing

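No paired analysis was possible because the groups share fewer than 2 replicate numbers. The number of all genes called was 660 when control replicates 1 and 1_1 were averaged, and from 558 to 2396 when 1 library was left out. In the same alternatives the number called among the 10 genes was 0 and from 0 to 1, among the other 62 imprinted genes 2 and from 1 to 6, and among the imprint regulators 1 and from 1 to 7. Without a filter 2 of the 10 genes were called, *Mest* and *H19*. For the IGF axis, edgeR, DESeq2 and a pseudocount of 5 each gave 2 calls, and leaving out 1 library gave 1 to 2. No gene named with its alternatives changed direction. Averaging or leaving out leaves fewer libraries than the comparison of 3 with 3, and beyond that the cause of the lost calls was not tested. Genes with under about 10 normalized counts, *H19*, *Igf2* and *Meg3* among them, are limited by depth, and *Dlk1* was not detectable.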
